A study of Homo sapiens with 59 samples.

Results

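The promoters of 42 imprinted or imprinted-domain genes were followed across histone marks, cell lines and treatments in NCI-H661, an established human lung large cell carcinoma cell line. Members were taken from a fixed list of gene symbols, and each promoter was the window of 3001 bp centred on the canonical transcription start site (TSS) of the gene in GENCODE, out of 20007 protein-coding promoters in all. All 42 symbols were found. PEG3 and ZIM2 start at the same base and share 1 window, and the windows of PEG10 and SGCE, which are transcribed from opposite strands, overlap.

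The study asked how the embryonic factors DPPA2 and DPPA4 shape chromatin in these cells, by ChIP-Rx-seq, in which mouse chromatin is added as an external reference before immunoprecipitation. In the knockdown experiment, 7 days of doxycycline at 2 µg/ml (DOX), or of its vehicle water (H2O), were given to lines with inducible short hairpins against DPPA2 (shDPPA2), DPPA4 (shDPPA4) or both (shDPPA2+4). The hairpins were inserted by a transposon system and the lines were sorted bulk populations, not clones, so the H2O cells carry the same hairpins, and shDPPA2+4 was made from the shDPPA2 line. An effect of doxycycline itself cannot be told apart from the knockdown in these libraries. H2AK119ub and H3K27me3 (replicates 1 and 3) and H3K4me3 (replicates 1 and 2) were profiled, with 6 DOX and 6 H2O libraries for each mark. Parental cells without hairpins were kept for 1 day in A-485 at 10 µM, which blocks p300 and CBP, or in its solvent DMSO. Both treatments were profiled for H3K27me3 (replicates 2, 3 and 4), for H3K27ac (replicates 2 and 4) and for H2AK119ub (replicates 3 and 4), and the Polycomb subunit SUZ12 in DMSO alone (replicate 3).

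The deposited data are peak lists, 1 for each of 51 libraries. Reads in the peaks kept ranged between 1330926 and 4136521 per library for H2AK119ub, between 1085365 and 10545826 for H3K27me3 and between 8394879 and 19379794 for H3K4me3 in the knockdown lines, and between 390762 and 12005354 in the parental libraries. Several libraries stood apart. The 3 DOX H2AK119ub libraries of replicate 3 shared less of their covered length with the other H2AK119ub libraries (median Jaccard index, the shared over the combined covered length, 0.197 to 0.255) than the other 9 did (0.284 to 0.331). The H3K27ac library of DMSO replicate 4 had a median Jaccard index of 0.0852 with its own target, against 0.252 and 0.253 for the other 3, and of 0.0824 with H2AK119ub libraries. The H2AK119ub libraries of A-485 replicate 3 and DMSO replicate 3 and the H3K27me3 library of DMSO replicate 4 overlapped the SUZ12 list more than their own target. H3K27me3 libraries of replicate 3 held 5989134 to 10345651 reads in peaks after DOX but 1085365 to 2227464 in H2O. Among the knockdown-line H3K27me3 libraries, shDPPA4 H2O replicate 3 had the lowest median Jaccard index with its own target (0.149). H2AK119ub counts of members in the knockdown lines are also given for replicate 1 alone, and the parental values by replicate. Epithelial promoters EPCAM, CDH1, KRT18 and KRT19 and the lung factor NKX2-1 carried H3K4me3 in all 12 libraries, KRT8, SFTPC, SCGB1A1 and the blood, endothelial and liver markers in none, and the fibroblast collagens COL1A1 and COL1A2 in all. The DPPA2 and DPPA4 promoters carried H3K4me3 in all 12 libraries, which does not check the knockdown.

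Imprinted genes are expressed mainly or only from the copy inherited from 1 parent. The choice is set by DNA methylation laid down in the germ line at imprinting control regions and kept after fertilisation by factors such as the zinc finger proteins ZFP57 and ZNF445 with TRIM28, and many such genes lie in clusters that share a control region. The copies can carry opposite chromatin: H3K4me3 on the active copy, and DNA methylation, H3K9me3 or the Polycomb marks H3K27me3 and H2AK119ub on the silent one. A bulk ChIP-seq signal adds both copies, so an overlap of marks in the same window can come from 2 alleles, from different cells or from the same nucleosomes, and these cannot be told apart here. H2AK119ub is deposited by Polycomb repressive complex 1, H3K27me3 by Polycomb repressive complex 2, of which SUZ12 is a core subunit, and H3K27ac by p300 and CBP.

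To show the kind of DNA beneath the marks, the 250 bases upstream of the TSS of 6 members are given, 5′ to 3′ on the gene's strand, from the RefSeq table of GRCh38.p14, with each CpG in capitals. UBE3A (chr15:25439025-25439274, minus strand) carried H3K4me3 without H3K27me3. DIO3 (chr14:101561245-101561494, plus strand) and KLF14 (chr7:130734208-130734457, minus strand) carried H3K4me3 with H3K27me3. TFPI2 (chr7:93890754-93891003, minus strand) had neither Polycomb mark in the filtered peaks of 1 line after DOX. DDC (chr7:50565406-50565655, minus strand) carried H3K27me3 without H3K4me3, and CPA4 (chr7:130292911-130293160, plus strand) carried none of these marks.
UBE3A: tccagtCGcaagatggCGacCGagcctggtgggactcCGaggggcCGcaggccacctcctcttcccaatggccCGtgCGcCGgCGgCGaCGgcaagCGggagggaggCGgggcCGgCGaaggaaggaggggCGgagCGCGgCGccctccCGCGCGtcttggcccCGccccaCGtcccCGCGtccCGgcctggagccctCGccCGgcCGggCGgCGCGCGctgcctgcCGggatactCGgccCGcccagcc
DIO3: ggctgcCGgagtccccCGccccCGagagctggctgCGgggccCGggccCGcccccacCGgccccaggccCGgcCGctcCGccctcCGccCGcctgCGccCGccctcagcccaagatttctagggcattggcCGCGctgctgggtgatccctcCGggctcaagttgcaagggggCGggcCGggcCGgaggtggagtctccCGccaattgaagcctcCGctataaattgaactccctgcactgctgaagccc
KLF14: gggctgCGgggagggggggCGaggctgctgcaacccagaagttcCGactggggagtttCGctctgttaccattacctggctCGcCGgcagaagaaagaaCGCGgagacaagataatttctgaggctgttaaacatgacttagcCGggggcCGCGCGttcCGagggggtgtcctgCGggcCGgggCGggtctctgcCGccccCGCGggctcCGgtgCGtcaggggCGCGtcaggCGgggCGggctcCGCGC
TFPI2: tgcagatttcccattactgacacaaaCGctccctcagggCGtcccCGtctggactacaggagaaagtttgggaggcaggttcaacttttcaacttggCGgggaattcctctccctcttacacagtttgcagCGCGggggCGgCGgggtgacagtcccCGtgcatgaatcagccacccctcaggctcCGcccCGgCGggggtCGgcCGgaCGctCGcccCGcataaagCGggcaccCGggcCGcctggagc
DDC: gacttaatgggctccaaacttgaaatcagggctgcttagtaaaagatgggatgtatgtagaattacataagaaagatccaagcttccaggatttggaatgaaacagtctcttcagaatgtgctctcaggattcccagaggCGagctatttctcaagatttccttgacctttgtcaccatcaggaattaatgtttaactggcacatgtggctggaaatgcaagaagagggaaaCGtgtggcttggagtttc
CPA4: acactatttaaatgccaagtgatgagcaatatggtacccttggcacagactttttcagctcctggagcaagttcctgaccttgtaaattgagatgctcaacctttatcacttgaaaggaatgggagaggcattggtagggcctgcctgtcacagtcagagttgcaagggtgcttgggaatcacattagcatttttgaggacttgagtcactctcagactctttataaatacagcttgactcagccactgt
The printed stretches held 37 CpGs at UBE3A, 22 at DIO3, 27 at KLF14 and 20 at TFPI2, against 2 at DDC and 0 at CPA4. Of the 42 members, 29 were in the RefSeq table and 23 had the same start there as in GENCODE. Over the 300 bases of the table (250 before the start and 50 after), these 23 members held a median of 22 CpGs (1 to 49), beside a median of 23 (0 to 69) over 12699 promoters. The 5 bivalent members among them had a median of 27 CpGs and the 7 with H3K4me3 but no H3K27me3 a median of 22. On either strand, the hexamer TGCCGC, which ZFP57 binds when its CpG is methylated, was present in 9 of the 23 members (39.1%) and in 23% of the 12699 promoters. The YY1 core GCCATNTT was in 3 (13%) and 8.54%, and a CTCF core in 0 and 0.0709%. TGCCGC can lie within a CTCF core match and can share bases with a YY1 core, and each match is a description of the window only.

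A promoter was counted as marked where at least 300 bp of its window lay under peaks with a log2 fold over input above 1 and a false discovery rate under 0.05. In the knockdown lines, H3K4me3 marked 35.7 ± 0.516 of the 42 promoters after DOX and 35.5 ± 0.548 in H2O (SD, n = 6 each), or 84.9% and 84.5%, beside 70.5% and 70.1% of all promoters. H3K27me3 marked 18.3 ± 2.34 after DOX and 18.3 ± 3.83 in H2O (43.6% and 43.7%, beside 15.9% and 14.8% of all promoters). H2AK119ub marked 18 to 31 promoters after DOX and 30 to 34 in H2O (62.7% and 76.6% on average, beside 43.6% and 51.7%). The imprinted promoters thus carried all 3 marks more often than promoters at large, and H3K27me3 by the widest ratio. These shares are descriptions without a test, because neighbouring members share domains.

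**Figure D1:**
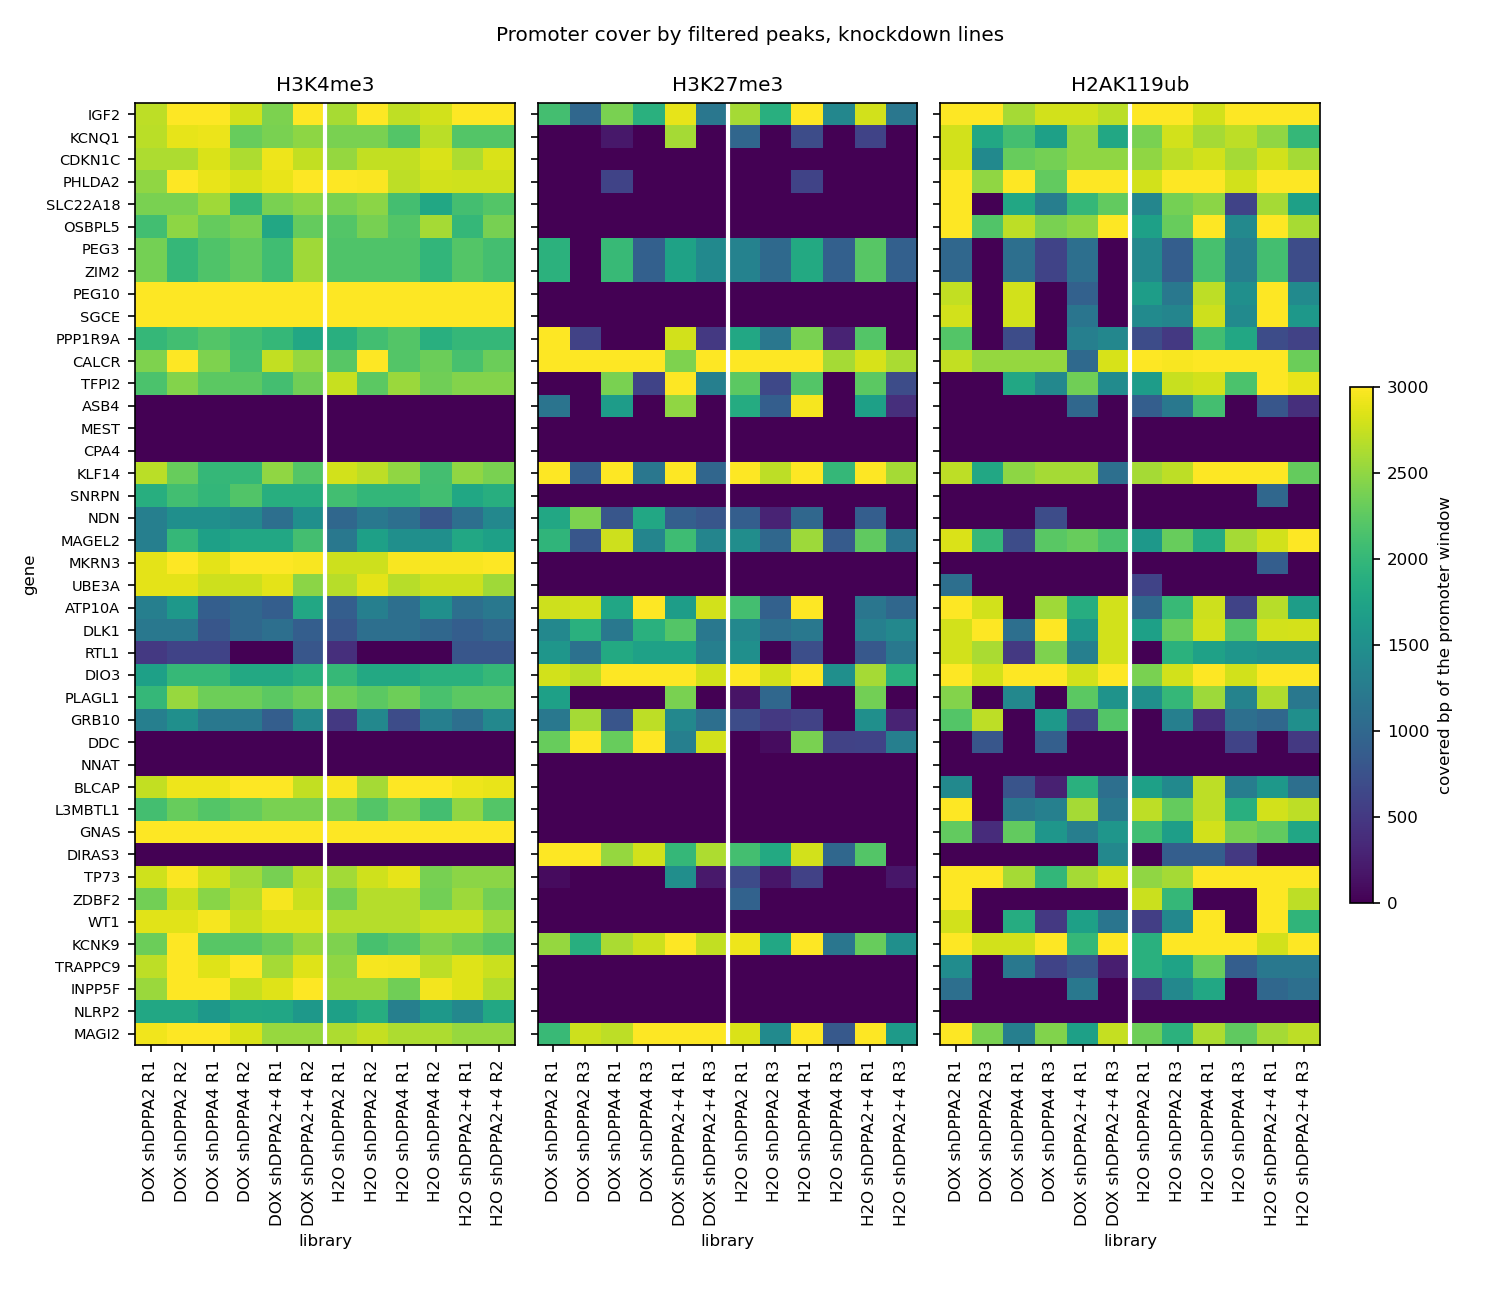
Covered bp of each 3001-bp promoter window (colour, dark 0, bright 3001) for the 42 genes (rows) in each knockdown-line library (columns, DOX left of the white line, H2O right), by mark. Most H3K4me3 rows, whether fully, partly or not covered, changed little between libraries. H3K27me3 and H2AK119ub varied more between libraries, and MEST, CPA4 and NNAT were dark throughout.

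Each promoter was given a state in each line from its H2O libraries: bivalent (H3K4me3 and H3K27me3 in both replicates), H3K4me3-only, H3K27me3-only, neither, or mixed (replicates that differed). H2AK119ub did not enter the state, so H3K4me3-only means H3K4me3 in both replicates and H3K27me3 in neither. Bivalent members numbered 15 of 42 in shDPPA2, 10 in shDPPA4 and 14 in shDPPA2+4 (35.7%, 23.8% and 33.3%), beside 8.61%, 7.37% and 8.25% of all promoters. H3K4me3-only members numbered 16, 17 and 18 (38.1%, 40.5% and 42.9%), beside 58.7%, 58.4% and 58.7%. Of these members, 12, 10 and 14 carried H2AK119ub in both H2O libraries. Among all H3K4me3-only promoters, 6279 of 11742, 6202 of 11685 and 6094 of 11752 did. The state was the same in all 3 lines for 28 members and differed for 14.

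The 15 members that were H3K4me3-only in every line were CDKN1C, SLC22A18, OSBPL5, PEG10, SGCE, SNRPN, MKRN3, UBE3A, BLCAP, L3MBTL1, GNAS, WT1, TRAPPC9, INPP5F and NLRP2. GNAS, which encodes a stimulatory G protein subunit, and PEG10, a retrotransposon-derived gene transcribed from the paternal copy, had the whole window of 3001 bp under H3K4me3 in all 6 DOX and all 6 H2O libraries, as did SGCE, a sarcoglycan gene that shares the start region of PEG10. UBE3A, the ubiquitin ligase of Angelman syndrome, had 2477 to 2877 bp (median 2827) of H3K4me3 cover after DOX and 2577 to 2877 bp (median 2727) in H2O. None of these genes had H3K27me3 in any knockdown-line library. SNRPN, MKRN3 and NLRP2 carried H3K4me3 with almost no H2AK119ub: NLRP2 had none in 12 libraries, and SNRPN and MKRN3 had 0 bp in every library but shDPPA2+4 H2O replicate 1, at 1000 and 900 bp.

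The 9 members bivalent in every line were IGF2, PEG3, ZIM2, CALCR, KLF14, MAGEL2, DIO3, KCNK9 and MAGI2. DIO3, which encodes the deiodinase that inactivates thyroid hormone, had 1706 to 2006 bp of H3K4me3 after DOX (median 1856) and 1806 to 2006 bp in H2O (median 1906). Its H3K27me3 covered 2695 to 3001 bp after DOX (median 2901) and 1500 to 3001 bp in H2O (median 2701). CALCR, the calcitonin receptor gene, had 2424 to 3001 bp of H3K27me3 after DOX and 2601 to 3001 bp in H2O. IGF2, the paternally expressed growth factor, had 1000 to 2889 bp of H3K27me3 after DOX (median 2000) and 1189 to 3001 bp in H2O (median 2245). All 9 carried H2AK119ub in each of the 6 H2O libraries.

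MEST, CPA4 and NNAT carried neither mark in any line at the canonical start. MEST, a hydrolase gene with several promoters, was marked by H3K4me3 in 6 of 6 DOX and 6 of 6 H2O libraries when any annotated start was allowed, whereas CPA4, a carboxypeptidase gene, and NNAT, a neuronal proteolipid gene, stayed unmarked. The same change gave GNAS H3K27me3 in 5 DOX and 6 H2O libraries and SNRPN in 6 DOX and 3 H2O libraries, so the state of these genes holds for the canonical start only. KCNQ1, a potassium channel gene in the domain of CDKN1C, was mixed in all 3 lines. The other 14 members, PHLDA2, PPP1R9A, TFPI2, ASB4, NDN, ATP10A, DLK1, RTL1, PLAGL1, GRB10, DDC, DIRAS3, TP73 and ZDBF2, changed state between lines. Among them ASB4, DIRAS3 and DDC were H3K27me3-only in 2 lines each and had no H3K4me3 cover in any of the 12 libraries.

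Members of a domain did not share a state. At 11p15.5, IGF2 was bivalent, and CDKN1C, SLC22A18 and OSBPL5 were H3K4me3-only. All 6 members there carried H2AK119ub in every H2O library (5 or 6 of 6 after DOX). In 15q11-q13, MAGEL2 was bivalent while SNRPN, MKRN3 and UBE3A were H3K4me3-only. In 7q21.3, CALCR was bivalent, PEG10 and SGCE were H3K4me3-only, and ASB4 had no H3K4me3. At 20q, H3K27me3 marked none of the 4 members in any library.

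H2AK119ub was the mark with the lower member count after DOX. Per library, the number of the 42 promoters marked was 31 and 18 after DOX, against 31 and 33 in H2O, for shDPPA2 (replicates 1 and 3), 27 and 26, against 32 and 30, for shDPPA4, and 31 and 25, against 34 and 33, for shDPPA2+4. Within replicate 1 the mean was 29.7 after DOX and 32.3 in H2O (n = 3 each), or 70.6% and 77%, beside 52% and 55.4% of all promoters, and within replicate 3, whose DOX libraries stood apart, 23 and 32. Over both replicates the share of all promoters was 43.6% after DOX and 51.7% in H2O. The gap between treatments over all promoters was thus also wider with replicate 3 included. DOX counts were below their H2O partner in 5 of 6 pairs and equal in the sixth. The part of the replicate 3 libraries in this difference was not tested.

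**Figure D2:**
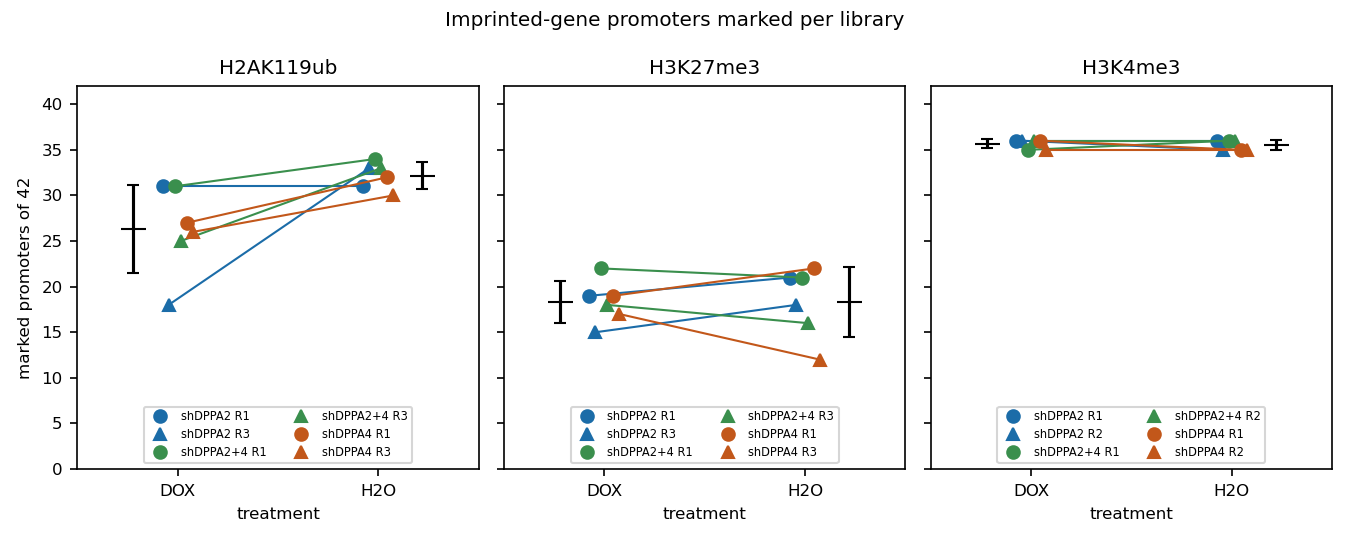
Number of the 42 imprinted-gene promoters marked (at least 300 bp under peaks) in each library, DOX left and H2O right, with lines joining the libraries of a line and replicate. Black bars are the mean and SD of 6 libraries. H2AK119ub counts were 18 to 31 after DOX and 30 to 34 in H2O, while H3K4me3 counts stayed at 35 or 36.

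The cover of each promoter was compared by a moderated linear model (limma, over all promoters with at least 300 bp in 2 or more libraries, with the replicate as a block), averaged over the 3 lines. None of the 35 members tested passed an adjusted p of 0.05 with a difference of at least 300 bp for H2AK119ub, beside 5 of 13777 promoters (0.0363%). At an unadjusted p under 0.05 there were 10 of 35 members, beside 16.3% of all promoters. The median difference was -322.3 bp over members, and -242.5 bp over all promoters tested. Reads in H2AK119ub regions, tested with edgeR over regions that held a peak in every library, gave 0 of 16 members called (0% of 6161 regions) and 2 of 16 at an unadjusted p under 0.05 (21.5% of regions), with 0 members called by DESeq2, beside 405 of 6161 regions. DIO3 had the smallest p in that test (in RPM, region reads scaled to the reads in all regions tested). In replicate 1 of shDPPA2, shDPPA4 and shDPPA2+4 it held 323, 281 and 267 RPM after DOX, against 267, 251 and 293 in H2O. In replicate 3 it held 634, 552 and 516 RPM after DOX, against 345, 345 and 402 in H2O. The log2 difference was 0.37 ± 0.13 (SE, edgeR adjusted p = 0.18), and 5 of 6 pairs were higher after DOX.

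TFPI2, a secreted protease inhibitor gene, had the smallest p. Its H2AK119ub cover was 0 and 0 bp after DOX, against 1653 and 2748 bp in H2O, in shDPPA2. It was 1800 and 1401 bp after DOX, against 2801 and 2148 bp, in shDPPA4, and 2348 and 1448 bp, against 3001 and 2900 bp, in shDPPA2+4 (replicates 1 and 3). All 6 DOX libraries lay below their H2O partner, and the difference was -1376 ± 374 bp (SE, limma adjusted p = 0.146). H3K4me3 at TFPI2 covered 2100 to 2448 bp after DOX and 2248 to 2748 bp in H2O. ZDBF2, a paternally expressed zinc finger gene, came next, at -1244 ± 398 bp (adjusted p = 0.184), and L3MBTL1, a chromatin reader gene, at -964 ± 389 bp (adjusted p = 0.247). Without the library shDPPA2 DOX replicate 1, the differences were -1344 bp for TFPI2, -1709 bp for ZDBF2 and -1377 bp for L3MBTL1. That fit left replicate 3 alone in the shDPPA2 DOX group, a library that stood apart (median Jaccard index 0.197). No call is drawn from it.

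PEG10 and SGCE had no H2AK119ub in the filtered peaks of any of the 3 DOX libraries of replicate 3. PEG10 had 2731 bp in shDPPA2 replicate 1, 2801 bp in shDPPA4 replicate 1 and 931 bp in shDPPA2+4 replicate 1 after DOX, and between 1200 and 3001 bp in the 6 H2O libraries. Its cover differed by -840 ± 397 bp (limma adjusted p = 0.294). In place of cover, the reads of the window were scaled to the library's reads in kept peaks (RPM, log2, pseudocount of 1). PEG10 (log2 difference -3.01, limma adjusted p = 0.0296) and SGCE (-2.93, adjusted p = 0.0332) then passed, as did 153 of 13817 promoters. On that scale a value of 0 weighs heavily, and all the zeros were in replicate 3.

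**Figure D3:**
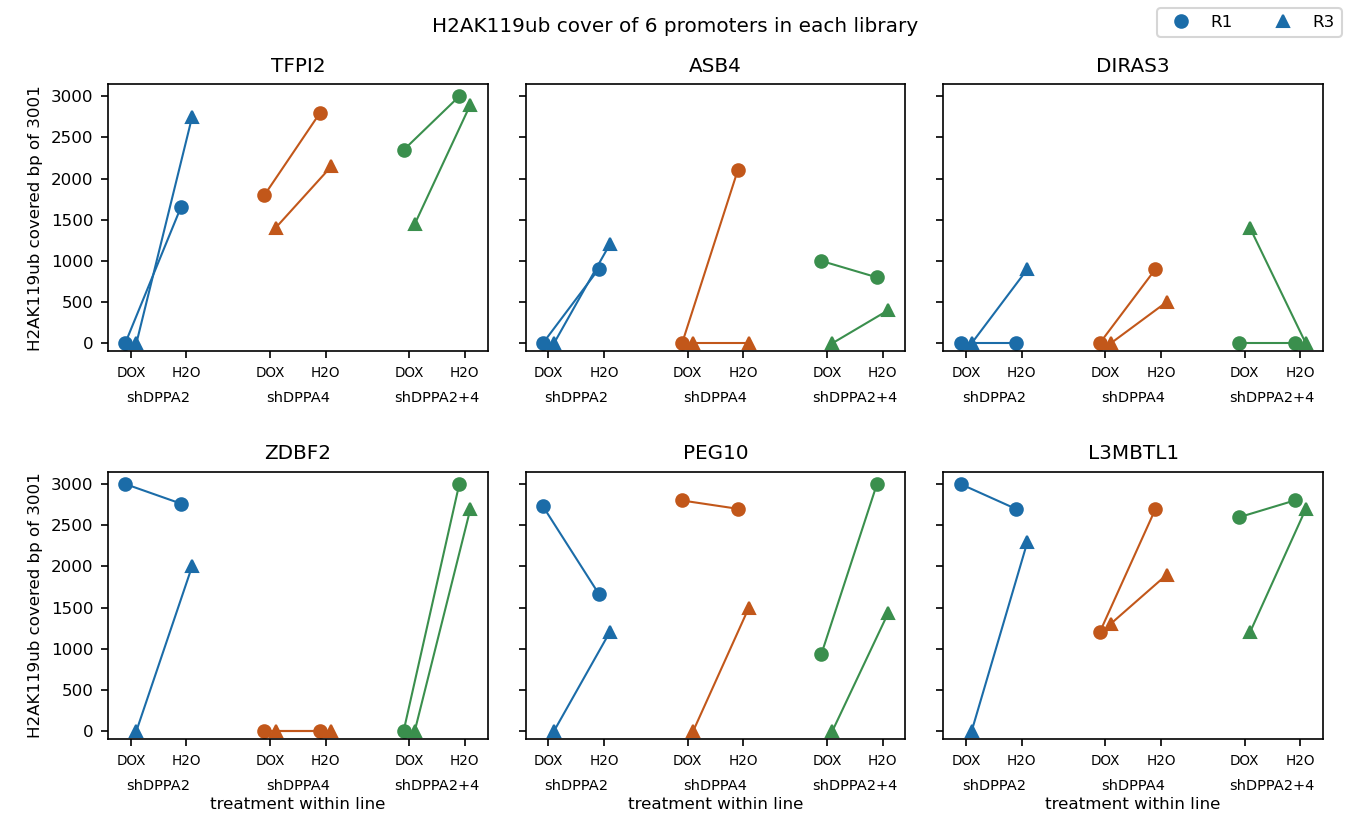
H2AK119ub covered bp of the 3001-bp window for 6 genes, by line, with DOX left of H2O and lines joining the libraries of a replicate (circles R1, triangles R3). TFPI2 was lower after DOX in all 6 pairs, and PEG10 was at 0 bp in the 3 DOX libraries of R3.

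A promoter was counted as lost in a line where both H2O libraries and no DOX library were marked, and as gained in the reverse case. For H2AK119ub, 2 of 30 members marked in both H2O libraries were lost in shDPPA2 (TFPI2 and ASB4, beside 6.34% of all such promoters), 1 of 29 in shDPPA4 (DIRAS3, beside 11%) and 1 of 32 in shDPPA2+4 (ZDBF2, beside 5.08%). None was gained (beside 3.32%, 0.887% and 1.98%). ASB4, a ubiquitin ligase adaptor gene, had 0 and 0 bp after DOX, against 900 and 1200 bp in H2O, in shDPPA2. With all deposited peaks, its DOX replicate 1 cover there was 900 bp, and no member was counted as lost in shDPPA2 or shDPPA2+4. DIRAS3, a Ras-related growth suppressor gene, had 0 and 0 bp after DOX, against 900 and 500 bp, in shDPPA4. ZDBF2 had 0 and 0 bp after DOX, against 3001 and 2701 bp, in shDPPA2+4, but 3001 and 0 bp, against 2763 and 2000 bp, in shDPPA2, and no cover under either treatment in shDPPA4. The test of the difference between lines in cover gave no adjusted p under 0.754 for a member. The counts rested on single libraries. Without DOX replicate 1, 15 of 30 members were lost in shDPPA2 (beside 48.3% of all promoters), 6 of 29 in shDPPA4 (beside 34.2%) and 8 of 32 in shDPPA2+4 (beside 22.7%). In shDPPA4, 3 of 29 were lost without DOX replicate 3 (beside 17.1%) and 3 of 32 without H2O replicate 3 (beside 20.5%). In shDPPA2+4, 2 of 33 were lost without H2O replicate 1 (beside 7.19%) and 3 of 34 without H2O replicate 3 (beside 12.7%).

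By state, the 15 H3K4me3-only members had H2AK119ub at 8.33 ± 3.33 promoters after DOX and 11.2 ± 1.33 in H2O (SD, n = 6). The 9 bivalent members had it at 8.33 ± 1.03 and 9 ± 0, and the 14 members whose state differed between lines at 8.67 ± 1.37 and 11 ± 1.1. By domain, the members at 7q21.3 had it at 3.5 ± 1.87 of 6 promoters after DOX and 5.83 ± 0.408 in H2O, and those at 14q32 (DLK1, RTL1 and DIO3) at 3 ± 0 of 3 and 2.83 ± 0.408. In replicate 1 alone (n = 3), the H3K4me3-only members had it at 11 ± 1 promoters after DOX and 12 ± 1 in H2O. The bivalent members had it at 9 ± 0 under both treatments, and those whose state differed at 8.67 ± 1.53 and 10.3 ± 1.15. The members at 7q21.3 had it there at 5 ± 1 after DOX and 6 ± 0 in H2O, and those at 14q32 at 3 ± 0 and 2.67 ± 0.577. Among all promoters, H2AK119ub marked 43.6% after DOX and 51.7% in H2O over both replicates, and 52% and 55.4% in replicate 1 alone.

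For H3K27me3 the number of promoters marked was alike on average, and differences at single members did not pass the test. In regions with a peak in every library, 14 members were tested and none was called by edgeR (0% of 14942 regions). An unadjusted p under 0.05 was found for 7 (24.7% of regions), among them PEG3 and ZIM2, which share 1 region. The median log2 difference over the 13 member regions was -0.411, and 0.031 over all regions. KLF14, a transcription factor gene expressed from the maternal copy, had the smallest p. Its region spanned 22600 bp (chr7:130726201-130748800). In replicate 1 of shDPPA2, shDPPA4 and shDPPA2+4 it held 143, 127 and 146 RPM after DOX, against 171, 148 and 210 in H2O. RPM are region reads scaled to the reads in all regions tested, with the trimmed mean of M-values (TMM). In replicate 3 the KLF14 region held 38.4, 62.5 and 80.0 RPM after DOX, against 220, 256 and 180 in H2O. Before scaling, it held 182, 425 and 329 reads after DOX there, against 374, 215 and 238 in H2O. On the RPM scale the DOX and H2O libraries did not overlap, and replicate 3, where depth differed most between treatments, showed the wider gap. The log2 difference was -1.10 ± 0.29 (SE, edgeR quasi-likelihood adjusted p = 0.111).

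IGF2 had the same sign, with 27 to 51.3 RPM after DOX and 58.2 to 103 in H2O (log2 difference -0.85 ± 0.24, edgeR adjusted p = 0.111). PPP1R9A, an actin-binding scaffold gene, had 4.22, 4.26 and 7.05 RPM after DOX in replicate 3, against 29.4, 9.51 and 12.9 in H2O, with overlap in replicate 1 (-1.30 ± 0.44, adjusted p = 0.122), and PEG3 with ZIM2 had 5.91 to 46.4 and 25.0 to 55.9 (-0.86 ± 0.37, adjusted p = 0.178). The opposite sign was seen at DDC, which encodes the decarboxylase that makes dopamine and serotonin, and at ATP10A, a phospholipid flippase gene. DDC had 102 to 182 RPM after DOX and 76.5 to 112 in H2O (0.63 ± 0.17, adjusted p = 0.111), and ATP10A 73.1 to 139 and 23.8 to 81.6 (0.69 ± 0.28, adjusted p = 0.159). MAGEL2, a ubiquitin ligase regulator gene, had a log2 difference near 0 (0.01 ± 0.14, adjusted p = 0.978).

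Under DESeq2, 4 of these members passed, namely KLF14 (-1.13, adjusted p = 0.00735), IGF2 (-0.87, 0.018), PPP1R9A (-1.31, 0.0382) and DDC (0.61, 0.0273), among 1470 of 14942 regions. Without the library shDPPA4 H2O replicate 1, KLF14, IGF2, PEG3, ZIM2 and CALCR were again lower and DDC and ATP10A higher. That fit left replicate 3 alone in the shDPPA4 H2O group, the library with the lowest median Jaccard index of its mark (0.149). No call is drawn from it.

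**Figure D4:**
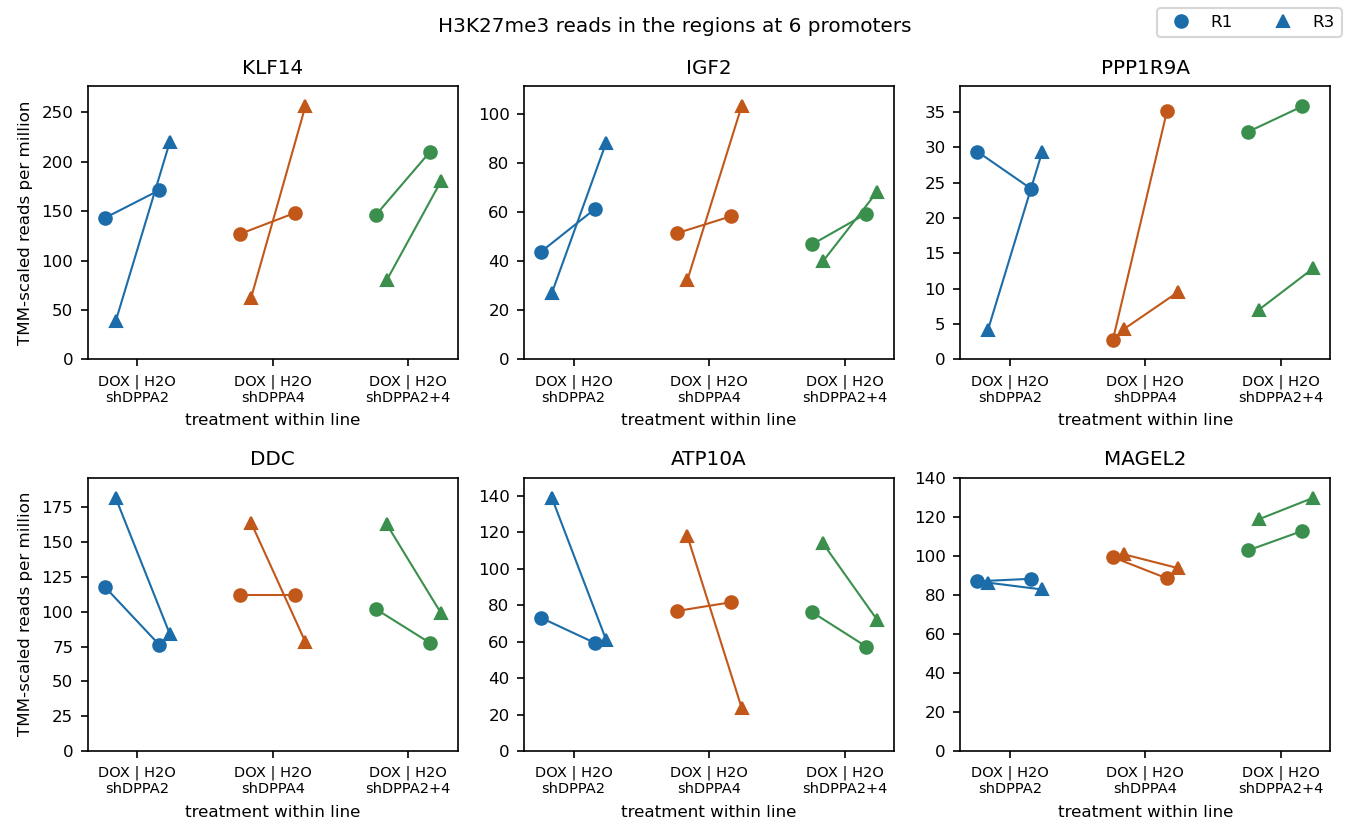
H3K27me3 RPM (TMM-scaled) in the region at 6 promoters, by line, with DOX left of H2O and lines joining the libraries of a replicate (circles R1, triangles R3). KLF14 and IGF2 were lower after DOX in all 6 pairs, and the MAGEL2 libraries overlapped.

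On the scale of covered bp, 0 of 23 members were called for H3K27me3 (0% of 4103 promoters), and 7 had an unadjusted p under 0.05 (22.3%). The median difference was 97.2 bp over members and 276.3 bp over all promoters. DDC had the smallest p: its cover was 2300 and 3001 bp after DOX, against 0 and 96 bp in H2O, in shDPPA2, then 2301 and 3001 bp, against 2401 and 596 bp, in shDPPA4, and 1296 and 2801 bp, against 600 and 1296 bp, in shDPPA2+4. The difference was 1619 ± 439 bp (limma adjusted p = 0.142), and only replicate 1 of shDPPA4 went the other way. Without shDPPA4 H2O replicate 1, which left replicate 3 alone in that group, the DDC difference was 2043 bp. ATP10A, DIRAS3, DIO3 and MAGI2 also had more cover after DOX in that fit. No call is drawn from it, nor from the fit without shDPPA4 DOX replicate 1, which also left 1 library in its group.

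H3K27me3 was lost at TFPI2 in shDPPA2 (1 of 17 members, beside 3.66% of all promoters) and at PPP1R9A in shDPPA4 (1 of 12, beside 1.37%), and at none of 16 in shDPPA2+4 (beside 1.92%). TFPI2 had 0 and 0 bp after DOX, against 2248 and 648 bp in H2O, in shDPPA2. In shDPPA4 it had 2400 and 600 bp, against 2200 and 0 bp, and shDPPA2+4, which was made from the shDPPA2 line, lost neither mark at TFPI2. The loss of both Polycomb marks was thus seen in shDPPA2 alone, and only with filtered peaks. With all deposited peaks, no member was counted as lost for either mark in shDPPA2, or for H3K27me3 in shDPPA4. Over the 3 lines, each of these marks was present at TFPI2 in 4 of 6 DOX libraries. PPP1R9A had 0 and 0 bp, against 2401 and 300 bp, in shDPPA4, where the lower H2O value stood at the minimum for a marked promoter. DDC was gained in shDPPA2 (1 of 20 members, beside 0.753%), and none was gained in shDPPA4 (beside 0.594%) or shDPPA2+4 (beside 0.811%). Leaving out a library moved these counts: in shDPPA2, 4 of 17 were lost without DOX replicate 1 (beside 16.1% of all promoters), 4 of 21 without H2O replicate 3 (beside 10.2%), and 2 of 24 gained without H2O replicate 1 (beside 2.31%). In shDPPA4, 3 of 22 were lost without H2O replicate 3 (beside 10.1%) and 6 of 30 gained without H2O replicate 1 (beside 4.39%). In shDPPA2+4, 1 of 16 was lost without DOX replicate 1 (beside 9.79%), 3 of 26 were gained without H2O replicate 1 (beside 2.92%) and 1 of 21 without DOX replicate 3 (beside 2.41%).

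H3K4me3 was found at nearly the same members in every library. No member was lost (beside 0.0358%, 0.0216% and 0.0431% of promoters in shDPPA2, shDPPA4 and shDPPA2+4) or gained (beside 0.343%, 0.677% and 0.407%). Without shDPPA2 H2O replicate 1, 1 of 7 members was gained in that line (beside 0.613%), without shDPPA4 DOX replicate 2, 1 of 7 (beside 1.1%), and 1 of 36 was lost in shDPPA2+4 without DOX replicate 2 (beside 0.416%). RTL1, a retrotransposon-derived gene, was the only member whose H3K4me3 count differed between libraries, at 4 DOX and 3 H2O libraries. None of 35 members was called in the test of reads (0.521% of 22060 regions) or, of 33, in the test of cover (0% of 12928 promoters). PEG10 and SGCE share 1 region of reads, as do PEG3 and ZIM2, and each was counted as a member. Unadjusted p under 0.05 was found for 16 of 35 members in reads (26.9% of regions) and for 4 of 33 in cover (10.3%), and DESeq2 called 0 members.

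Among these, 4 of 35 members had an adjusted p under 0.05, beside 8.88% of the 22060 regions, without reaching the log2 difference of 0.5. CDKN1C, the cyclin-dependent kinase inhibitor gene of the Beckwith-Wiedemann domain, had 77.7 to 97.9 RPM after DOX and 70.9 to 82.7 in H2O (log2 difference 0.15 ± 0.04, edgeR adjusted p = 0.0309). DIO3 had 17.4 to 28.6 and 14.6 to 20.8 (0.28, adjusted p = 0.0326), SNRPN 54.2 to 62.8 and 48.1 to 57.1 (0.15, 0.0349), and MAGEL2 8.05 to 25.6 and 7.68 to 17.7 (0.29, 0.0454). The ranges overlapped for all 4 genes, while within pairs of a line and replicate DOX was higher in 6 of 6 at DIO3 and SNRPN, 5 of 6 at CDKN1C and 4 of 6 at MAGEL2. The adjusted p of CDKN1C was 0.485 without the replicate block and 0.182 by DESeq2. On cover, MAGI2, a scaffold gene, had the smallest p (189 ± 70 bp, limma adjusted p = 0.409).

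In parental cells, H3K27ac marked 14 and 11 of the 42 promoters after A-485, against 24 and 33 in DMSO (replicates 2 and 4). That is 29.8% and 67.8% on average, beside 44.1% and 66.2% of all promoters. By their input counts, the A-485 replicate 4 list had the same input as the DMSO replicate 2 list, and the DMSO replicate 4 list the same as the A-485 replicate 2 list, and the part of this in the H3K27ac results was not tested. In replicate 2 alone, cover was lower after A-485 at 24 members, higher at 0 and equal at 18, and in replicate 4 it was lower at 31, higher at 2 and equal at 9. By state, the 15 H3K4me3-only members had H3K27ac at 10 ± 1.41 promoters after A-485 and 14.5 ± 0.707 in DMSO (SD, n = 2). The 9 bivalent members had it at none after A-485, and in DMSO at 2 in replicate 2 (PEG3 and ZIM2, which share a window) and 9 in replicate 4, the library that stood apart. MEST (2685 bp) and NNAT (2051 bp) were covered by H3K27ac in DMSO replicate 4 only.

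In the fit of cover with the replicate as a block, 12 of 23 members were called, beside 32.3% of 11796 promoters. All 12 members were lower, as were 3804 of the 3805 promoters called. A promoter with no cover in either A-485 library could enter this fit only through the DMSO libraries. Among the 12 these were CDKN1C, PHLDA2, WT1, PEG3, ZIM2, KCNQ1 and PPP1R9A. For them a lower value was fixed by the filter, so their shared direction is not separate evidence. PEG3 and ZIM2 share a window but were counted as separate members. At an unadjusted p under 0.05 there were 15 of 23, beside 50% of promoters. The median difference was -1400 bp over members and -1001.8 bp over all promoters. These calls depended on the block: the fit had 1 residual degree of freedom and drew its spread from all promoters, and without the block no member and no promoter was called (CDKN1C adjusted p = 0.0657).

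The members called were PEG10, CDKN1C, SGCE, PHLDA2, TP73, OSBPL5, TRAPPC9, WT1, PEG3 with ZIM2, KCNQ1 and PPP1R9A. PEG10 had 1200 and 600 bp after A-485, against 2770 and 2870 bp in DMSO (replicates 2 and 4), a difference of -1920 ± 474 bp (SE, limma adjusted p = 0.0042). CDKN1C had 0 and 0 bp, against 1426 and 3001 bp (-2214 ± 620 bp, adjusted p = 0.00992). PHLDA2, a maternally expressed gene that restrains placental growth, had 0 and 0 bp, against 1900 and 2320 bp (-2110 bp, adjusted p = 0.0143). In all 12 the A-485 libraries lay below both DMSO libraries, which the filter fixed for members at 0 bp in both A-485 libraries.

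TP73, a p53 family gene, had 600 and 300 bp, against 1800 and 2801 bp. TRAPPC9, a vesicle trafficking gene, had 1200 and 400 bp, against 2044 and 2544 bp, and OSBPL5, an oxysterol-binding protein gene, had 300 and 0 bp, against 1200 and 2891 bp. WT1, the Wilms tumour transcription factor gene, had 0 and 0 bp, against 1400 and 1962 bp. PEG3, a zinc finger gene, had 0 and 0 bp, against 1175 and 1675 bp. KCNQ1 had 0 and 0 bp, against 400 and 2400 bp, and PPP1R9A 0 and 0 bp, against 800 and 1700 bp.

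The differences were smaller at GNAS, UBE3A and ZDBF2. GNAS had 2921 and 2601 bp after A-485, against 3001 and 3001 bp in DMSO (-240 ± 273 bp, limma adjusted p = 0.427). UBE3A had 1700 and 2000 bp, against 2200 and 1800 bp (-150 ± 461 bp, adjusted p = 0.766), and ZDBF2 1500 and 1900 bp, against 1863 and 1600 bp (-31 ± 502 bp, adjusted p = 0.954). At UBE3A and ZDBF2 the treatments overlapped. Among the other members not called, INPP5F (-1450 ± 635 bp, limma adjusted p = 0.0606), PLAGL1 (-800 ± 353 bp, 0.0621) and MKRN3 (-1001 ± 466 bp, 0.0746) lay nearest to the threshold.

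**Figure D5:**
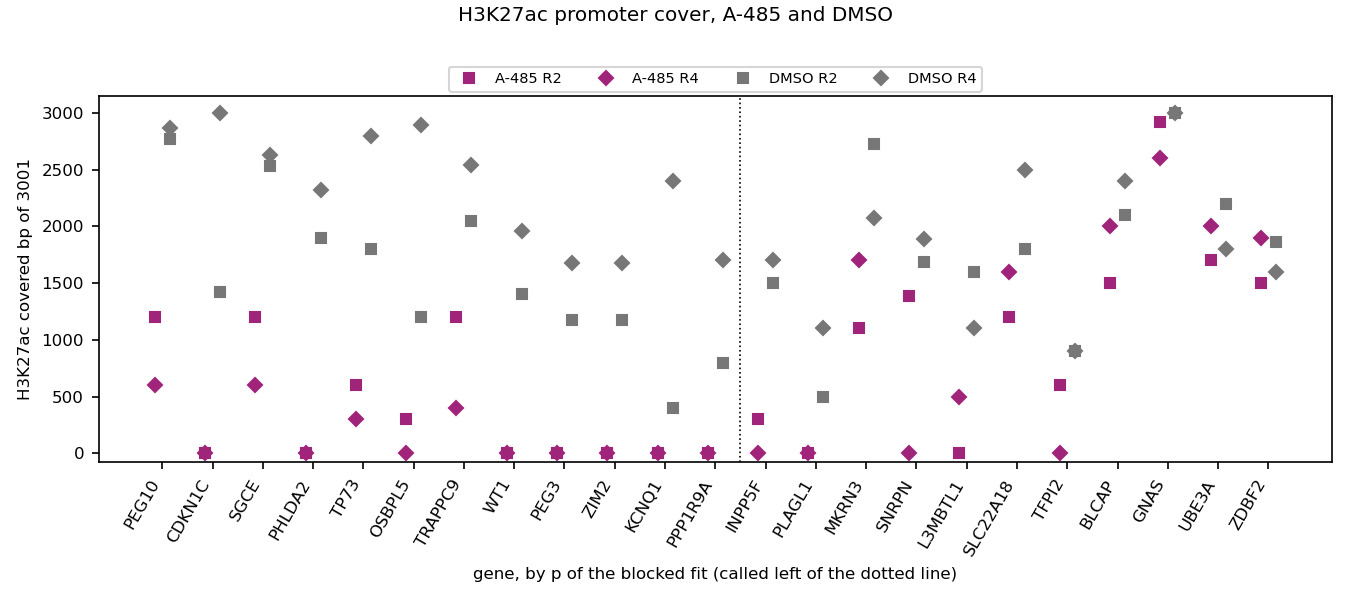
H3K27ac covered bp of the 3001-bp window at the 23 genes tested, A-485 left of DMSO for each gene (squares R2, diamonds R4). Left of the dotted line are the 12 genes called in the fit with a replicate block, none of which was called without it. GNAS, UBE3A and ZDBF2 at the right kept 1500 bp or more in every A-485 library.

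Of the 23 members marked in both DMSO libraries, 8 were lost, namely KCNQ1, CDKN1C, PHLDA2, WT1, PEG3, ZIM2, PLAGL1 and PPP1R9A (beside 12.4% of all promoters), and none was gained (beside 0%). PLAGL1, a growth-regulating zinc finger gene, had 0 and 0 bp, against 500 and 1100 bp. Without DMSO replicate 2, 18 of 33 members were lost (beside 30% of all promoters), and without DMSO replicate 4, 9 of 24 (beside 13%). The reads left in the peaks numbered 603895 to 780375 after A-485 and 2709073 to 5647079 in DMSO, and their part in these counts was not tested. In regions with a peak in all 4 libraries, 0 of 10 members were called (0% of 8967 regions), 0 at an unadjusted p under 0.05 (7.38% of regions), and 0 by DESeq2. ZDBF2 had the smallest p there (log2 difference 0.76 ± 0.36, edgeR adjusted p = 0.719). Region reads were scaled within the libraries, so a fall shared by all regions would not show.

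For H2AK119ub, A-485 and DMSO libraries marked 25 and 16 members, against 29 and 17 (replicates 3 and 4). For H3K27me3 they marked 14, 17 and 9, against 18, 20 and 4 (replicates 2, 3 and 4). Replicates of a treatment differed more than the treatments. No member was called for H2AK119ub in cover (0 of 25, 0% of 6748 promoters, with 6.43% at an unadjusted p under 0.05) or reads (0 of 10, 0% of 4515 regions, 2.92%). None was called for H3K27me3 in cover (0 of 18, 0% of 3218 promoters, 2.86%) or reads (0 of 6, 0% of 8822 regions, 3.03%). The members at an unadjusted p under 0.05 numbered 0 in all 4 tests, and DESeq2 called 0 in both tests of reads. No member lost or gained H2AK119ub (beside 8.15% and 1.13%) or H3K27me3 (beside 0.526% and 0.0302%). Without A-485 replicate 3, 8 of 17 members lost H2AK119ub (beside 32.5% of all promoters) and 1 of 13 gained it (beside 5.46%), and without DMSO replicate 3, 6 of 25 gained it (beside 8.31%). Without A-485 replicate 4, 1 of 17 lost it (beside 13.1%) and 1 of 13 gained it (beside 6.28%). Without DMSO replicate 4, 4 of 29 members lost H2AK119ub (beside 19.8%) and 1 of 17 lost H3K27me3 (beside 3.61%). The smallest p values were at OSBPL5 (H2AK119ub cover, -805 ± 463 bp, limma adjusted p = 0.988), IGF2 (H2AK119ub reads, log2 difference 0.70 ± 0.44, edgeR adjusted p = 0.908), KCNQ1 (H3K27me3 cover, -529 ± 306 bp, limma adjusted p = 1) and DIO3 (H3K27me3 reads, 0.66 ± 0.34, edgeR adjusted p = 0.882).

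Genes outside the members gave a comparison of the pathway. Of 23 genes of imprint maintenance, 16 carried H3K4me3 in every knockdown-line library, while ZFP57, DNMT3L, CTCFL, DPPA3, NLRP5, KHDC3L and PADI6, most of them germline or early embryonic genes, carried none. H2AK119ub marked 9.0 ± 3.22 of these 23 after DOX and 10.8 ± 1.47 in H2O (SD, n = 6), and in replicate 1 alone 11.3 ± 2.08 and 12 ± 1 (n = 3). None of the 16 tested was called for H2AK119ub cover, with a median of -300.1 bp. After A-485, 8 of the 15 tested were called lower for H3K27ac cover, beside 32.3% of 11796 promoters called. These were ARID4A, DNMT1, DNMT3A, DNMT3B, TET2, TET3, TRIM28 and UHRF1, under the same dependence on the block as the members. Of 42 genes listed as neighbours of the domains, H3K27me3 marked 9 to 10 after DOX and 7 to 13 in H2O, and H2AK119ub 15 to 24 and 16 to 24. None of the 32 tested was called for H2AK119ub cover, with a median of 1.6 bp, beside -322.3 bp over the members. NAP1L2, which is X-linked, stood in this list by mistake. After A-485, 7 of 20 neighbours tested were called lower for H3K27ac cover (beside 32.3% of all promoters called). Of 13 genes at other imprinted loci, 11 carried H3K4me3 in every library, and H2AK119ub marked 5 to 9 after DOX and 6 to 9 in H2O. None of the 11 tested for H2AK119ub was called, and 1 of 7, FAM50B, was called lower for H3K27ac (beside 32.3%).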

How the data were processed

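NCI-H661 ChIP-Rx-seq libraries were analysed from the peak lists the authors deposited. The submitters' notes name Trim Galore 0.6.6, BWA 0.7.13, SAMtools 1.9, Picard 2.6.0, deepTools 3.5.0 and the hg38 build. The authors called domains with EPIC2 against an input. The 51 lists drew on 8 inputs, and in each knockdown line all lists of a treatment shared 1 input. DOX and H2O lists of a line thus differed in their input as well, and the part of this in the differences was not tested. By the input counts, each H3K27ac list of replicate 4 shared its input with the replicate 2 list of the other treatment. The SUZ12 list has EPIC2 columns although the study names MACS2. The read columns deposited by the authors hold raw counts of ChIP and input reads per domain. The deposited fold column is the log2 ratio of ChIP over input. The deposited p-value and false discovery rate columns come from the caller, and the deposited score column was not used. These columns served only to filter peaks. The mouse reads were not used here, so global changes were not scaled.

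Peaks with a log2 fold above 1 and a false discovery rate under 0.05 (75.6 to 99.0% of each list) were intersected with windows of 1500 bp on either side of the canonical TSS (GENCODE). Reads in regions (a peak in every library, mean of at least 10 reads) were tested with edgeR 4.0.16, using TMM scaling and quasi-likelihood, and covered bp with limma 3.58.1, using trend and robust settings. The replicate was a block, as in the study's design with batch and treatment, since replicates were made in complete batches. Deviations of same-numbered libraries had correlations (15 pairs a mark) between -0.0904 and 0.688 for H3K27me3, between 0.357 and 0.543 for H3K4me3 and between 0.239 and 0.706 for H2AK119ub, and at 0.408 to 0.543 in the parental libraries. Calls needed a Benjamini-Hochberg adjusted p under 0.05 with a log2 difference of at least 0.5, or 300 bp. Promoters without variance, such as H3K4me3 at GNAS, could not be tested. The fits were tested on simulated data. Alternatives were DESeq2 1.42.0, other scaling, filters and marked lengths, no block, read density (RPM, log2 with a pseudocount of 1) and leaving out each library. The labels give replicate numbers only, so the tests cover only the spread between libraries, which may be technical. Peaks record enriched domains, and the depth of a list limits which domains were called.

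The members and lists were chosen with earlier results of these data known. Genes with values per library were those lost, gained or called in any comparison, that with the smallest p in each test, and up to 3 per state with the largest cover. ATP10A, MAGEL2, L3MBTL1, SNRPN, MKRN3 and other genes outside that rule were described after their values were seen.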

Additional observations from a re-analysis of the deposited data

Results flagged for a closer look

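SUZ12, profiled in a single DMSO library and entering no comparison, marked 18 of the 42 imprinted-gene promoters (42.9%, beside 12.2% of all promoters). It marked 7 of the 9 members bivalent in every knockdown line and 11 of the 14 whose state differed between lines. Of the 15 H3K4me3-only members it marked 0. With 1 library there is no replicate check, and no SUZ12 library of another treatment was analysed here.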

How the results depend on the processing

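Member counts in this section stand without the share of all promoters or regions, so they describe the settings alone. Without the replicate block, H3K27ac cover after A-485 gave 0 called members in place of 12, and it gave 7 when any covered bp entered. The block changed no other count of called members. Read density gave 2 members for H2AK119ub cover, 1 for H3K27me3 cover (KLF14, -1.51, adjusted p = 0.0263) and reversed MAGI2 for H3K4me3 (-0.02) and PEG10 (0.10) and SGCE (0.20) for H3K27ac. DESeq2 gave 4 for H3K27me3 reads. Leaving out each library in turn gave 0 to 3 called members for H2AK119ub cover, 0 to 7 for H3K27me3 reads, 0 to 5 for H3K27me3 cover and 0 to 0 for H3K27ac cover, where the block could not be kept. It reversed IGF2 for H2AK119ub reads after A-485 (-0.44 to 2.04, with -0.15 also below 0) and OSBPL5 for H2AK119ub cover (-1701 to 90 bp). The causes were not tested.

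With a minimum of 1000 bp, H3K27ac marked 8 members after A-485, and H2AK119ub marked 11 after A-485 and 15 in DMSO. Lost H2AK119ub in shDPPA2 became 1 at 1000 bp and 0 with all deposited peaks, in shDPPA4 2 at 1000 bp, and in shDPPA2+4 3 at 1000 bp and 0 with all peaks, where 1 was gained at 1000 bp. Lost H3K27me3 in shDPPA2 became 2 at 100 bp and 0 at 1000 bp or with all peaks, and in shDPPA4 0 at 1000 bp or with all peaks. Gained H3K27me3 in shDPPA2 became 3 at 1000 bp and 0 at any annotated TSS, and in shDPPA4 1 in both. Over single libraries left out, lost H2AK119ub ranged over 2 to 15, 1 to 6, 1 to 8 and 0 to 8 (shDPPA2, shDPPA4, shDPPA2+4 and parental), and gained H2AK119ub over 0 to 2, 0 to 1, 0 to 1 and 0 to 6. At the highest of these lost counts, given above, the share of all promoters lost rose as well. Lost H3K27me3 ranged over 1 to 4, 1 to 3, 0 to 1 and 0 to 1, and gained H3K27me3 over 1 to 2, 0 to 6 and 0 to 3 in the knockdown lines. Gained H3K4me3 ranged over 0 to 1 in shDPPA2 and shDPPA4, lost H3K4me3 over 0 to 1 in shDPPA2+4, and lost H3K27ac over 9 to 18. The alternative chosen after seeing the data, replicate 1 alone for H2AK119ub (also given by state, domain and list), gave 29.7 members marked after DOX and 32.3 in H2O.

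Of the counts under other settings, 387 equalled the main count or stayed within 1.5 times of it. Beyond that, 49 descriptive counts moved, and counts of called members rose in 7 cases and fell in 6. Of the effects at named members, 161 stayed on their side of the calling thresholds, 54 became weaker, 5 became stronger and 6 changed sign. An unmarked promoter means that no domain was called there.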
